A study of Drosophila melanogaster with 2 samples.

Results

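Of the 2883 Senseless-2 ChIP-seq summits that the conservative peak list placed on the assembled chromosomes of Drosophila melanogaster, 814 (28.2%) lay at promoters from which coding transcription runs in 1 direction only. A summit, the point of highest enrichment in a peak, was counted here when it lay within 500 bp of the annotated start of a protein-coding transcript and when all such starts within 500 bp were on the same strand. A further 363 summits had coding starts on both strands within 500 bp and are called divergent, and 1706 lay more than 500 bp from any coding start and are called away from promoters. The 814 summits were nearest to starts of 774 genes. For 666 of them (81.8%), a single annotated start position lay within 500 bp, and 33 (4.05%) also had the start of a non-coding transcript on the other strand within that distance.

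The peaks came from whole embryos of 0 to 24 h, a collection that spans nearly all of embryogenesis and every embryonic tissue. All embryos were of 1 transgenic strain with an insertion that expresses a sens-2-eGFP fusion, and the fusion was precipitated with an antibody against GFP from chromatin sonicated to 200 to 800 bp. There was 1 group, with 2 biological replicates, and no other genotype or condition. The signal that a control precipitation or input would give at these promoters was not analysed here. Read depth is also unknown from peak lists, and the cells in which the fusion was bound cannot be told apart in whole embryos.

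Senseless-2 is a zinc-finger transcription factor related to Senseless, which directs the development of sensory organ precursors and is known both to repress genes through the core site AAATCA and to act together with proneural proteins at their targets. A promoter that drives 1 gene in 1 direction lets the side of binding be read: upstream of the start lies the regulatory sequence where transcription factors and an open, nucleosome-depleted stretch are usually found, and downstream lies the transcribed first exon. In flies, genes with steady expression in all cells often sit in closely spaced divergent pairs, whereas regulated genes more often stand alone and use several alternative promoters.

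The sequences at 5 of the 7 strongest summits are shown because these carry some of the highest signals, and those of the other two, px and mRpL41, are not shown. Signal is the authors' own enrichment value for a peak, on the scale of its list. Each sequence is written in the direction of transcription on dm6, from 60 bp beyond the summit to 10 bp past the start, and capitals mark the 11 bases centred on the summit. The sequence of Ugalt, a UDP-galactose transporter, is the minus strand of chrX:2703842-2703955, with the summit 43 bp upstream of the start. That of CG14100 is the minus strand of chr3L:19590514-19590672, with the summit 88 bp upstream. That of CG18549 is the plus strand of chr3R:12449115-12449306, with the summit 121 bp upstream. For ph-p, which encodes the Polycomb group protein Polyhomeotic proximal, the summit lay 500 bp upstream of its nearest start, and the 151 bp centred on it are given, from the minus strand of chrX:2137280-2137430. For PNPase, a mitochondrial exoribonuclease, the summit lay 81 bp inside the gene, past the end of the sequence from the minus strand of chr3R:31404730-31404800, which therefore has no capitals.
Ugalt: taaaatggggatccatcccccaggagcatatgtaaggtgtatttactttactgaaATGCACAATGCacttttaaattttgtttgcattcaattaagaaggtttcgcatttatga
CG14100: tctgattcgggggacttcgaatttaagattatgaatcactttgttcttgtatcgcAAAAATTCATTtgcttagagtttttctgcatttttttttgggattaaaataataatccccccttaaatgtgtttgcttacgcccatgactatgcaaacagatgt
CG18549: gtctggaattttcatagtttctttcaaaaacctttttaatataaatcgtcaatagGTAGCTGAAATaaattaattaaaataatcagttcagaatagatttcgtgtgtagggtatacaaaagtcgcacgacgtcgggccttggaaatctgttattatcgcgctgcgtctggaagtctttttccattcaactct
ph-p: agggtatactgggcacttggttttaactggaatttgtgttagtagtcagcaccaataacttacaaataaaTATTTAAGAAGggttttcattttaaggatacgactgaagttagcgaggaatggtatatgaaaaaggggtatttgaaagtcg
PNPase: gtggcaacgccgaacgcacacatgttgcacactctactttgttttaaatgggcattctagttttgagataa

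Neither AAATCA nor TATCGATA, the core of the site of the promoter factor DREF, was found on either strand in any of these 5 sequences, but the summit of px, the third strongest, had AAATCA within 50 bp. Their G+C content was 34.2% for Ugalt, 33.96% for CG14100, 34.9% for CG18549, 35.1% for ph-p and 42.2% for PNPase. Sequences that hold such a site, and the strongest ribosomal protein promoter, are shown for comparison. Here capitals mark every AAATCA and TATCGATA in the first pair. CG1635 had AAATCA within 50 bp of its summit (signal 479, summit 135 bp upstream), on the plus strand of chr3R:31588478-31588683. eEF1gamma, a subunit of translation elongation factor 1, had both words (signal 302, summit 35 bp upstream), on the plus strand of chr3R:29220077-29220182. RpS4, a protein of the small ribosomal subunit, had a signal of 205 and its summit 18 bp downstream, on the plus strand of chr3L:13041696-13041766, with the word CTTTTC, searched on the transcribed strand, absent near the start.
CG1635: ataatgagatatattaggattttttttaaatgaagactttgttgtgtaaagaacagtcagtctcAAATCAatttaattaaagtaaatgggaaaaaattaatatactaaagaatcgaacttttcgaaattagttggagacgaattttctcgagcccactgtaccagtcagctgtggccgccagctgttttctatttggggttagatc
eEF1gamma: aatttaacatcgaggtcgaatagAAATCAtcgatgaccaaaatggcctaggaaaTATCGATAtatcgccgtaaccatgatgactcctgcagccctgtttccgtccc
RpS4: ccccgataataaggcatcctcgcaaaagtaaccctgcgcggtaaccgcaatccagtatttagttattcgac

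Summits at one-directional promoters lay mainly upstream of the start. Of the 814, 608 (74.7%, exact binomial 95% interval 71.6 to 77.65) were upstream, 202 (24.8%) downstream and 4 at the start itself. The median position was 113.5 bp upstream (95% interval 129 to 95 bp upstream), and the fullest 50 bp bin, from 150 to 101 bp upstream, held 111 summits (13.6%). From 150 bp downstream on, no 50 bp bin up to 349 bp downstream held more than 9. The bins from 350 to 500 bp downstream held 15, 9 and 17. Within 250 bp upstream lay 443 summits (54.4%), against 147 (18.1%) within 250 bp downstream.

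Peaks that failed the authors' reproducibility threshold did not show this arrangement. At one-directional promoters the ranked list held 15013 peaks with scores below the lowest score of the conservative list, and 6042 of them (40.25%) were upstream, with a median position 74.0 bp downstream. The difference of 34.4 percentage points from the 814 passed Fisher's exact test (two-sided p = 8.16e-84, adjusted p = 8.16e-83 by Benjamini-Hochberg over the 10 tests made). Each replicate's own list gave the same direction, with 444 of 547 summits upstream (81.2%) in replicate 1 and 407 of 530 (76.8%) in replicate 2. Below the threshold, 40.3% and 42.5% were upstream in the ranked lists of replicates 1 and 2. The p-values treat summits as independent, although 50 of the 814 peaks overlapped another peak of the list. The replicates are only 2, so the p-values measure the spread between peaks. All 10 tests were also chosen with earlier results of these data known, which limits every p-value given here.

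**Figure D1:**
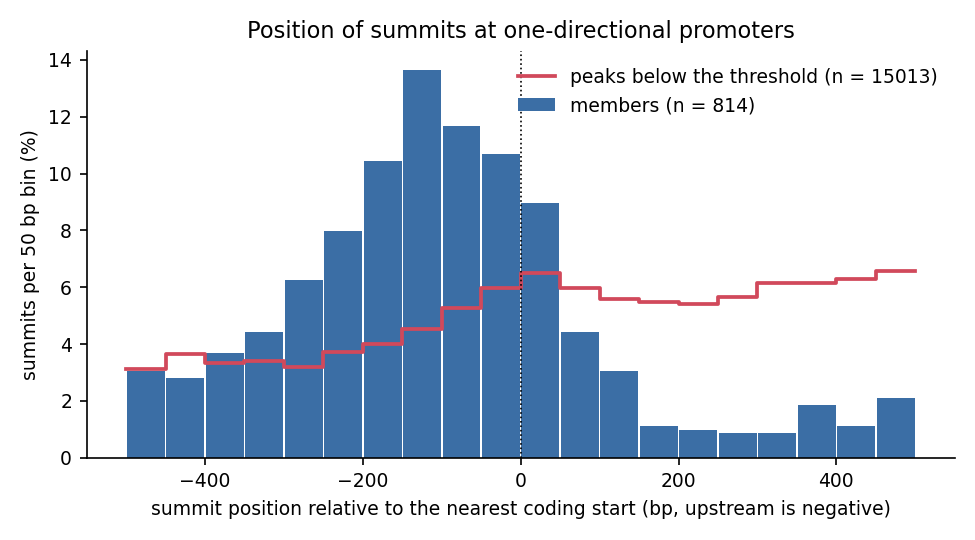
Bars give the share of the 814 summits in each 50 bp bin of position relative to the nearest coding start, with upstream negative, and the line gives the same for the 15013 peaks below the threshold. The bars are highest from 150 to 101 bp upstream, at 13.6%, and drop past the start, while the line is higher downstream than upstream.

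The stronger the signal, the more summits were upstream. Divided into 4 groups by signal, the strongest (signal 128 to 1085) had 176 of 204 summits upstream (86.3%) and a median position of 141 bp upstream. The next had 164 of 203 (80.8%, median 146 bp upstream), the third 140 of 204 (68.6%, median 75 bp upstream) and the weakest 128 of 203 (63.05%, median 43.0 bp upstream). The weaker groups thus held more summits close to the start: 23 of the 204 strongest lay within 50 bp of it (11.3%), against 56 of the 203 weakest (27.6%). The same order of upstream shares appeared in each replicate's own list, each from its strongest to its weakest group. They ran from 91.97% to 69.9% in replicate 1 and from 90.98% to 62.9% in replicate 2. The shift of the median position did not appear in both. In the same order it was 159, 140, 142 and 146.5 bp upstream in replicate 1, and 150, 102.5, 71 and 44.5 bp upstream in replicate 2. These shares are given as a description, without a test.

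Upstream and downstream summits differed in what the annotation places beneath them. Of the 608 upstream summits, 341 (56.1%) lay in no coding gene, 227 (37.3%) inside the span of the same gene, beyond one of its internal starts, and 54 (8.88%) inside another coding gene, and a summit can count in more than 1 of these. Of the 202 downstream summits, 201 lay in the span of their own gene and 148 (73.3%) in one of its exons. The G+C content of the 101 bp around the summit averaged 37.2% upstream and 43.96% downstream. It was 34.3% in the strongest of the 4 signal groups and 44.4% in the weakest, against 47.5% at the peaks below the threshold. The median signal was 89.7 upstream and 68.2 downstream.

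The distance limit cut through 1 locus. The summit with the largest distance inside the limit was that of ph-p, exactly 500 bp upstream (chrX:2137245-2137474, signal 745), and the nearest summit outside it was also at ph-p, 501 bp downstream of another of its starts (chrX:2137782-2137955, signal 299). The next inside were at CG31523, 499 bp downstream (signal 136), and at Hsp22, a small heat shock protein gene, 497 bp upstream (signal 110). Of the others outside, 1 lay 501 bp downstream of its start (signal 48.2) and 1 was at nrv1, a subunit of the sodium and potassium pump, 501 bp upstream (signal 9.32). Besides ph-p and Hsp22, the summits farthest upstream were those of CG6602 at 497 bp, of SERCA, the calcium pump of the endoplasmic reticulum, at 496 bp and of CG10479 at 494 bp. Besides CG31523, those farthest downstream were CG5854 at 494 bp, qtc at 492 bp, sws at 490 bp and FER, a tyrosine kinase gene, at 487 bp.

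The signal of the 814 summits ranged from 2.34 to 1085, with a median of 82.4 and quartiles of 62.7 and 128. The median was 92.3 at divergent promoters and 75.4 away from promoters. Of the 814, 431 (52.95%) exceeded the median of the whole list, 78.6, against 224 of 363 divergent summits (61.7%) and 786 of 1706 away from promoters (46.1%). Both differences passed Fisher's exact test, with a difference of -8.76 percentage points from divergent promoters (adjusted p = 0.00748) and of 6.88 from summits away from promoters (adjusted p = 0.00231). By Fisher's exact test neither held in both replicates alone: against divergent promoters the difference was -4.79 points in replicate 1 (adjusted p = 0.255), and against summits away from promoters it was 0.0636 points in replicate 2 (adjusted p = 1.000).

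Of the 20 strongest summits, 18 lay upstream, and whether their genes share functions was not tested. After Ugalt (signal 1085) and CG14100 (1043) came px, the wing vein gene plexus, at 963 with its summit 203 bp upstream of the third of its start clusters. Below ph-p (745) and CG18549 (698) stood mRpL41, a protein of the mitochondrial ribosome, at 697 with its summit 138 bp upstream. PNPase followed at 652, and then CG1888 at 645, with its summit 233 bp upstream. Fkbp14, a prolyl isomerase, had 591 at 104 bp upstream, Tina-1 530 at 158 bp and CG13921 514 at 131 bp.

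The remaining ones named were weaker than 500. eIF6, which keeps ribosomal subunits apart, had a signal of 483 at 105 bp upstream, and Rtnl1, an endoplasmic reticulum shaping reticulon, 482 at 271 bp. CG1635, CG1142 and TRAM, which acts at the protein translocation channel, had 479, 473 and 434. Gapdh2, a glycolytic enzyme, had 427 at 150 bp upstream. GstE13, a glutathione S-transferase, had 404 at 76 bp downstream and was, with PNPase, the other downstream summit of the 20. CG11857 had 395 at 88 bp upstream and gish, a casein kinase 1, 391 at 155 bp. Every one of the 20 was present in each replicate's own thresholded list.

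In the separate replicates the order of the strongest promoters was partly different. The signal at Ugalt was 688 in replicate 1 and 403 in replicate 2, at CG14100 657 and 381, and at px 582 and 388, so that px exceeded CG14100 in replicate 2. At ph-p it was 445 and 302, at CG18549 415.0 and 288.5, and at PNPase 415 and 231. The signal of replicate 1 was the higher one at 666 of the 801 summits that had an overlapping ranked peak in both, with a median ratio of 1.40, and each replicate's signal is on the scale of its own list. The tagged gene, sens-2, had a pair of summits at its start, 73 and 247 bp upstream of their nearest starts (chr2L:6822157-6822332 and chr2L:6821623-6821775). Their signals were 305 and 257 in the conservative list, 169 and 150 in replicate 1, and 136 and 116 in replicate 2. The copies of sens-2 that the insertion adds and binding to the gene cannot be told apart there.

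Replicate support followed signal. This is partly given in advance, since the list's signal is a value over both replicates. Of the 814 summits, 364 (44.7%) overlapped a thresholded peak in both replicates' own lists, 141 in replicate 1 alone, 88 in replicate 2 alone and 221 (27.1%) in neither. In the strongest of the 4 signal groups 202 of 204 were in both lists, and in the weakest 10 of 203 were (4.93%). Upstream summits were in both lists more often by count, 304 of 608, than downstream ones, 59 of 202. Against the other kinds of place, the share in both lists was 7.79 points higher than away from promoters (630 of 1706, adjusted p = 5.25e-04 by Fisher's exact test), and -3.49 points relative to divergent promoters (175 of 363, adjusted p = 0.352). The first difference did not pass Fisher's exact test among peaks at or above the median signal (3.79 points, adjusted p = 0.278). For summits of replicate 2's list the measure is another one, the share also found in replicate 1's list. There the difference from summits away from promoters had the other sign (68.1% against 70.2%, -2.11 points, Fisher's exact test, adjusted p = 0.579). By Fisher's exact test the difference from divergent promoters passed in that other measure (-13.4 points, adjusted p = 7.19e-04). For the conservative list it passed with a 250 bp window (-12.2 points, adjusted p = 0.00366, Fisher's exact test).

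Summit positions lay close together in the replicates, which is partly set by how they were chosen. The conservative list keeps peaks that repeat between replicates. Of several overlapping peaks in a replicate, the one with its summit nearest to the list's summit was taken. At the 801 summits with a ranked peak in both, the replicates' own summits lay a median of 23.0 bp apart, 78.3% lay within 50 bp of each other and 734 (91.6%) were on the same side of the start. The median position was 115 bp upstream by replicate 1's summits and 112 bp upstream by those of replicate 2. Across these summits the rank correlation of signal was 0.686, a description over peaks that share a library, not over samples.

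**Figure D2:**
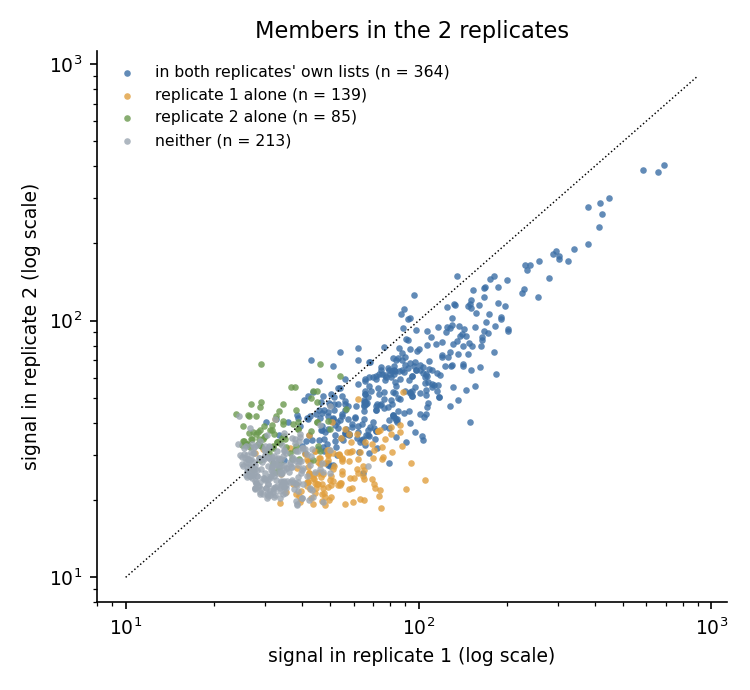
Each point is 1 of 801 summits, with its signal in replicate 1 on the horizontal and in replicate 2 on the vertical axis, both on log scales, coloured by the thresholded lists it overlaps. The dotted line marks equal values, and 666 of the 801 points lie on the side of replicate 1.

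A small tail of very low signals belonged mainly to doubled peaks. Below a signal of 40 there were 31 summits, of which 24 overlapped another peak of the list, against 26 of the 783 others. The weakest 3 were at Ama, a cell adhesion gene (signal 2.34, 283 bp upstream), SNF4Agamma, a subunit of AMP-activated kinase (2.36, 140 bp upstream), and CG5910 (2.59, 64 bp downstream). Each shared its overlapping replicate peaks with a stronger summit of the same gene, with signals of 85.2 at Ama, 113 at SNF4Agamma and 106 at CG5910. The replicate values at Ama, 56.3 and 36.6, are therefore those of the shared peak.

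Genes with alternative promoters made up much of the set. Starts of a gene more than 500 bp apart were counted as separate start clusters. Of the 814 summits, 404 (49.6%) were at genes with at least 2 clusters, whereas 4669 of all 13221 one-directional start clusters (35.3%) belonged to such genes. At divergent promoters, 59 of 363 summits (16.3%) were at such genes, as were 16.3% of the 3956 annotated start clusters with a coding start on the other strand within 500 bp. The annotation thus already separates the kinds of promoter, and the difference of 33.4 points between their summits (Fisher's exact test, adjusted p = 1.41e-28) is in large part set by the rule that defines them and is not read as a result about binding. The share of clusters with a summit was 4.61% at genes with 1 cluster, 7.26% with 2, 8.71% with 3, 10.05% with 4, 7.87% with 5 and 10.2% with 6 or more. The 774 genes had a median span of 6583 bp, against 2270 bp over the 10603 coding genes with a one-directional start cluster, and the part of gene length in these shares was not tested.

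Among genes with alternative promoters, no single place along the gene held most of the summits. The first cluster in the direction of transcription had 143 of the 404 (35.4%, 95% interval 30.7 to 40.3), clusters in the middle 126 (31.2%, 26.7 to 35.96) and the last 135 (33.4%, 28.8 to 38.2). Over all one-directional clusters of such genes the shares were 34.5%, 23.0% and 42.5%. Summits were thus fewer at the last and more at the middle clusters than the annotation's own proportions. Replicate 1's list gave 31.9% first, 31.9% middle and 36.1% last, and that of replicate 2 37.5%, 28.6% and 33.9%. At genes with exactly 2 clusters, 103 of 189 summits (54.5%) were at the first, against 45.1% of 2466 such clusters. At genes with 3 or more, 126 of 215 (58.6%) were at middle clusters, against 48.8% of 2203.

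**Figure D3:**
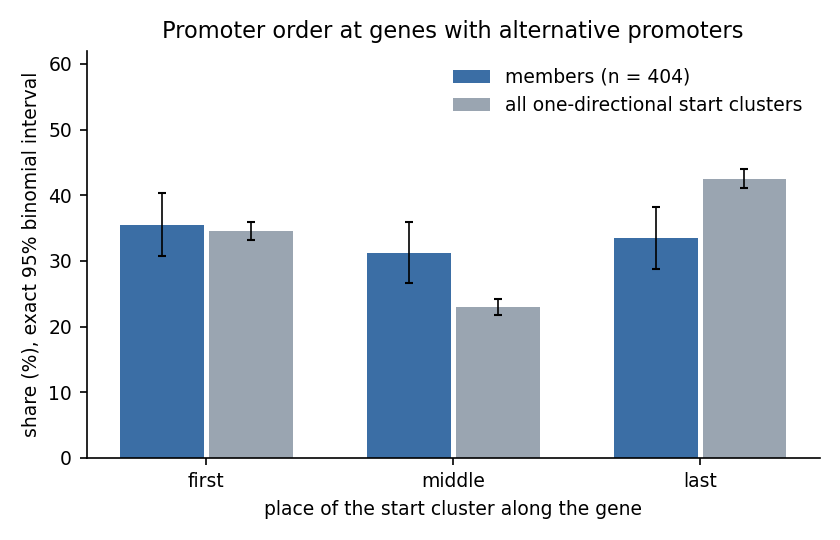
Bars give the share at the first, middle and last start cluster along the gene, for the 404 summits at genes with alternative promoters and for all one-directional start clusters of such genes, with exact 95% binomial intervals. The summits are spread almost evenly (143, 126 and 135), while the annotation has 42.5% of clusters in last place.

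At 32 genes, separate promoters of the same gene had summits, and at 4 genes this held for 3 or more start clusters. Rtnl1 had a summit at 5 of its 7 clusters, each between 181 and 421 bp upstream of its start, with signals of 187, 87.0, 66.4, 482 and 81.0 from the third cluster to the seventh. The sixth cluster of Rtnl1 was the strongest in both replicates, at 301 in replicate 1 and 173 in replicate 2. Moe, which encodes Moesin, a linker of actin to the membrane, had summits at 4 of 7 clusters, with signals from 62.7 at the first, 10 bp downstream, to 151 at the second, 285 bp upstream. Ptpmeg2, a tyrosine phosphatase, had 3 of 6, all upstream and of similar strength, with 256, 320 and 212.

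dnc, the cAMP phosphodiesterase dunce, had summits at 3 of its 8 clusters, with signals of 52.5, 196 and 59.9. The other genes named were bound at 2 clusters each. CG1888 had a signal of 52.2 at the first and 645 at the second of its clusters, MFS10, a membrane transporter, 58.9 and 366, and CG14968 222 and 183. aru had 3 summits, with 163 and 54.9 around its first cluster and 249 upstream of its second. In MFS10 and CG1888 the gap between the promoters of 1 gene was thus wide in both replicates, with 226 against 35.3 in replicate 1 at MFS10 and 379 against 32.2 at CG1888.

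Cytosolic ribosomal protein genes were the class with the highest share of genes bound. Over all 13968 coding genes, 774 (5.54%) had a summit at a one-directional promoter, or 3.79% and 3.65% by the lists of replicates 1 and 2. Of 93 ribosomal protein genes 34 had one (36.6%, exact binomial 95% interval 26.8 to 47.2), 24 by replicate 1's list and 28 by that of replicate 2. The number depended on the window that defines a one-directional promoter, with 46 genes at 250 bp and 18 at 1000 bp. A further set had summits at divergent promoters, so that 59 of the 93 had either. Among the 57 ribosomal protein genes with a one-directional start cluster, 33 had a summit (57.9%), against 764 of all 10603 such genes (7.21%). The remaining bound gene has an opposite start within 500 bp of its own start but not of its summit. No test was made of any class. The classes, like the tests that were made, were chosen with earlier results of these data known.

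The ribosomal protein summits sat close to the start, with 20 of the 34 upstream of it, 12 downstream and 2 at the start itself. All 34 lay between 66 bp upstream and 138 bp downstream, 28 of them (82.4%) within 50 bp of the start, against 133 of the 780 other summits (17.1%). Their median position was 11.0 bp upstream, against 123 bp for the others. In the replicates' own lists 21 of 24 and 25 of 29 ribosomal summits lay within 50 bp. Upstream were 15 of the 24 and 21 of the 29. The signals were moderate, from 52.7 at RpS6 to 205 at RpS4, with a median of 112. RpS28b had 203 at 22 bp upstream and RpL24 188 at 27 bp upstream, well under the 1085 of Ugalt. In replicates 1 and 2 the signal was 89.4 and 111 at RpS4, 121 and 82.8 at RpS28b, and 107 and 91.3 at RpL24.

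**Figure D4:**
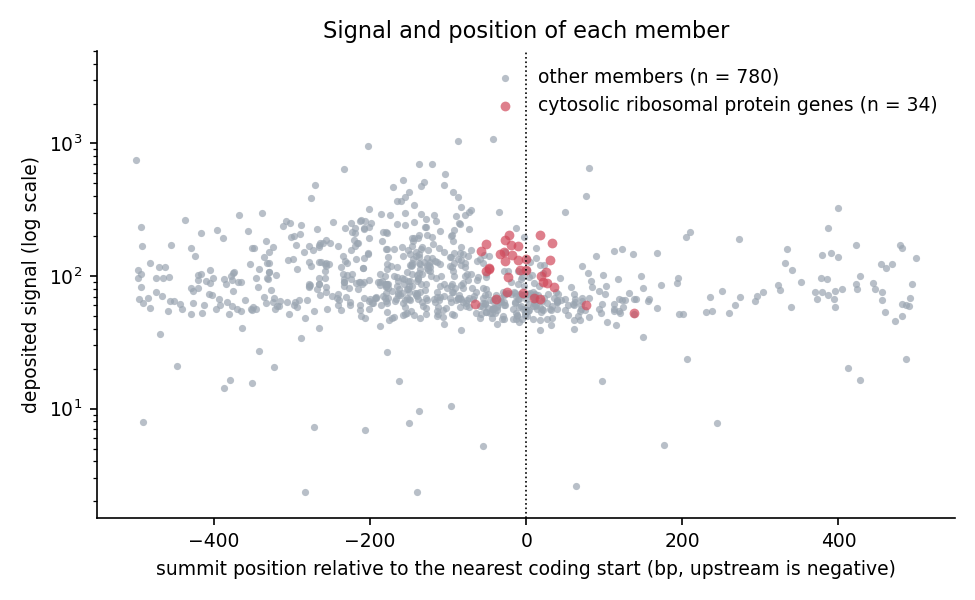
Each point is 1 of the 814 summits, with its position relative to the nearest coding start (upstream negative) on the horizontal axis and its deposited signal on the vertical log axis, and red marks the 34 summits at ribosomal protein genes. The red points cluster around the start, between 66 bp upstream and 138 bp downstream, while the strongest of the others lie mostly upstream.

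Among other classes of the translation machinery the shares bound were lower by count, though no difference between classes was tested. Translation factors had 8 of 54 genes bound (14.8%, 6.62 to 27.1, an interval that overlaps that of the ribosomal proteins), led by eIF6 (signal 483), eEF1gamma (302) and eEF1alpha1 (142), each upstream. Mitochondrial ribosomal proteins had 1 of 75 (1.33%), the strong summit of mRpL41. Aminoacyl-tRNA synthetases had 0 of 33, which allows a share of up to 9.09%. Of these 2 classes, only 21 of the 75 and 14 of the 33 genes had a one-directional start cluster. At divergent promoters 4 and 3 of their genes had summits. Mitochondrial respiration had 2 of 93 (2.15%), blw and ATPsynO, both subunits of ATP synthase, with signals of 204 and 105.0.

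By count, regulatory classes lay at or above the 5.54% over all genes. A one-directional start cluster was present at 47 of the 53 helix-loop-helix, 59 of the 77 signalling and 67 of the 68 homeobox genes. Over the 10603 coding genes with such a cluster, the share bound was 7.21%. Genes of helix-loop-helix proteins had 9 of 53 (17.0%, 8.07 to 29.8), led by E(spl)mbeta-HLH (signal 112.5, 294 bp upstream), a Notch target, emc (95.2, 7 bp upstream), an inhibitor of proneural proteins, and SREBP (80.4, 405 bp downstream). By each replicate's own list 3 of the 53 were bound, or 5.66%. Developmental signalling genes had 11 of 77 (14.3%, 7.35 to 24.1), with sgg, the GSK3 kinase (177), nkd, a Wnt inhibitor (158), and aos, an inhibitor of the EGF receptor (106), all upstream. Homeobox genes had 4 of 68 (5.88%, 1.63 to 14.4), close to the share over all genes. These were NK7.1 (289), Dll (204), tin (187) and bcd (104), each between 95 and 368 bp upstream.

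Polycomb and trithorax group genes, which maintain repressed and active states of developmental genes, had 4 of 27 (14.8%, 4.19 to 33.7). Besides ph-p these were Trl, which encodes GAGA factor (signal 156), Su(z)2 (140 and 64.6) and Psc (67.1), all downstream of the start, at 89 to 157 bp. Heat shock and chaperone genes had 5 of 39 (12.8%, 4.30 to 27.4), all upstream. Hsp27 (signal 298, 156 bp upstream), Hsp83 (284, 90 bp) and mrj (251, 303 bp) led them, followed by Hsp22 (110) and Hsp26 (109). The 3 small heat shock genes lie in 1 cluster on 3L and are therefore neighbours, not separate cases.

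Several classes held few or no summits. Cuticle protein genes had 0 of 119, which allows up to 2.52%, chemosensory receptor genes 0 of 180 (up to 1.67%), proteasome genes 0 of 48 (up to 6.25%), splicing genes 0 of 35 (up to 8.57%) and serine proteases of the gut 0 of 26 (up to 11.5%). For the small classes these limits reach or pass the 5.54% of all genes. The limits count every gene of a class, also those without a one-directional start cluster. Such a cluster was present at 116 of the 119 cuticle, 165 of the 180 chemosensory receptor and 22 of the 26 gut protease genes. It was present at only 25 of the 48 proteasome and 11 of the 35 splicing genes. At divergent promoters 1 proteasome gene and 2 splicing genes had summits, so these shares do not show an absence of binding. Vesicle traffic genes had 2 of 108 (1.85%), Rab5 (signal 119) and Rab40 (65.6), and cytochrome P450 genes 1 of 83, Cyp310a1 (82.3). Glutathione and glycosyl transferases had 2 of 70, GstE13 and GstT4 (51.6), and the V-ATPase, the proton pump, 1 of 33, VhaPPA1-1 (59.5). Cell cycle genes, at 3 of 55 (5.45%, 1.14 to 15.1), and the RNA polymerase II machinery, at 3 of 63 (4.76%, 0.993 to 13.3), lay near the share over all genes. The cell cycle genes were Dp, the partner of E2F (103 and 90.4), dap, a cyclin kinase inhibitor (56.5), and stg, the Cdc25 phosphatase (56.5). The genes of the RNA polymerase II machinery were Taf4 (75.6), MED4 (74.4) and Polr2F (66.7), and none of them was bound by either replicate's own list. The shares of these classes count every gene, also those without a one-directional start cluster. Such a cluster was present at only 32 of the 55 cell cycle, 25 of the 63 RNA polymerase II and 60 of the 108 vesicle traffic genes. Among all coding genes with such a cluster, 7.21% were bound. At divergent promoters 4, 3 and 4 genes of these classes had summits.

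**Figure D5:**
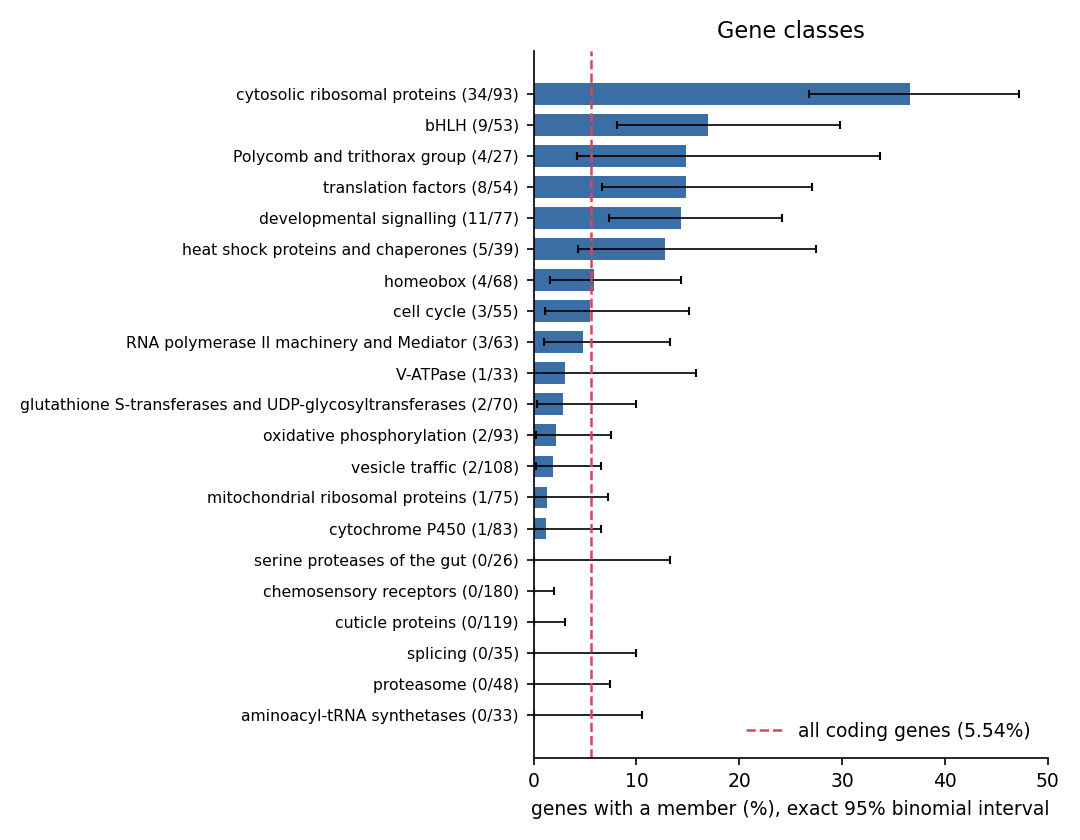
Bars give the share of genes in each of 21 classes that had a summit at a one-directional promoter, with exact 95% binomial intervals and the number of genes, and the dashed line marks the 5.54% over all coding genes. Cytosolic ribosomal proteins stand highest at 36.6%, and 6 classes have none.

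The core site of Senseless did not differ detectably in frequency between these summits and the others of the list. AAATCA lay within 50 bp, on either strand, at 150 of 814 summits (18.4%, 95% interval 15.8 to 21.3), at 62 of 363 divergent summits (17.1%) and at 305 of 1706 away from promoters (17.9%). The differences of 1.35 and 0.549 points did not pass Fisher's exact test (adjusted p = 0.692 and 0.740). The groups were not matched for base composition, with a mean G+C content around the summit of 38.95%, 34.35% and 36.7% in the same order. At the peaks below the threshold 1430 of 15013 had it (9.53%), in sequence of higher G+C content (47.5% against 38.95%). Median signal was 84.0 with the word and 82.3 without it, and 2 of the 20 strongest summits, at px and CG1635, had it.

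In the whole list, TATCGATA was most frequent near divergent summits. Its share over all annotated divergent starts was not counted, so how far the annotation sets this difference was not tested. The word lay within 50 bp of 13 of the 814 summits (1.60%) and of 20 of 363 divergent summits (5.51%). Away from promoters it lay within 50 bp of 3 of 1706 summits (0.176%). Both differences passed Fisher's exact test, with -3.91 points from divergent promoters (adjusted p = 7.85e-04) and 1.42 points from summits away from promoters (adjusted p = 2.54e-04). The first did not pass Fisher's exact test in 3 subsets: among peaks at or above the list's median signal the difference was -1.70 points (adjusted p = 0.316), and in replicates 1 and 2 alone it was -2.17 (adjusted p = 0.203) and -3.02 (adjusted p = 0.0551). The second did not pass Fisher's exact test with a 1000 bp window (0.565 points, adjusted p = 0.0546).

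In the promoters themselves, words were counted in the 300 bp from 250 bp upstream of the start on, at the 793 distinct starts nearest to the summits and at all 14793 one-directional coding starts. GAGAG, a word bound by GAGA factor, was found on either strand at 416 of the 793 (52.5%, 95% interval 48.9 to 55.98), against 35.98% of all starts. CAGCTG, an E-box of the kind bound by basic helix-loop-helix factors, was found at 170 (21.4%, 18.6 to 24.5), against 15.6%. AAATCA was found at 31.1% against 32.0%, TATCGATA at 5.17% against 5.27% and GGTCACAC, part of the site of Motif 1 binding protein, at 5.55% against 4.38%. TATAAA, the TATA box, searched on the transcribed strand from 45 to 15 bp upstream, was found at 28 starts (3.53%), against 8.79%. These are counts of words in a window, not of bound sites.

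The starts of the ribosomal protein genes had another word content. CTTTTC, searched on the transcribed strand from 10 bp upstream to 15 bp downstream as a form of the pyrimidine-rich initiator known from such genes, was found at 9 of the 34 bound (26.5%), at 20 of 97 one-directional starts of the class (20.6%) and at 1.24% of all one-directional starts. TATCGATA was found at 11 of the 34 (32.4%) and at 23.7% of the 97 starts. GAGAG was found at 4 of the 34 (11.8%) and at 15.5% of the 97. The 95% intervals at the 34 bound starts, 17.4 to 50.5% for TATCGATA and 12.9 to 44.4% for CTTTTC, contain the shares of the whole class.

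Base composition around the start also differed from that of other promoters. From 100 to 51 bp upstream, G+C content averaged 46.4% at the 793 starts and 41.9% at all 14793, and from 50 to 1 bp upstream 48.8% and 43.8%. Farther out the order was the other way, with 36.5% and 37.7% from 250 to 201 bp upstream. In the bin that held most summits, from 150 to 101 bp upstream, the averages were 39.5% and 39.1%.

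The share of promoters bound on the large chromosome arms ran from 5.41% of 3088 one-directional start clusters on 3R to 6.70% of 2554 on 3L, with 5.95% on 2L, 5.62% on 2R and 6.07% on X. Chromosome 4 had 0 of 103, which allows a share of up to 2.91%, and Y had 0 of 23 (up to 13.0%). Median signal was 74.5 on 2R and 92.6 on X at the extremes.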

How the data were processed

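Peak lists from ChIP-seq of 2 biological replicates were analysed, with replicate numbers from the labels. Peaks are on dm6, per the labels; for the aligner and the peak caller: not given in the sources used here. The deposited signal and the deposited score (made from the irreproducible discovery rate) are the authors' values per peak. Per the text deposited with the samples, each replicate's lists came from its own alignments and the series lists from both; 2 unnamed per-sample columns were not used. Starts came from Ensembl release 115 (BDGP 6.54), on the assembly whose RefSeq sequence was read. The 16 peaks on unplaced scaffolds were left out. The nearest start gave position and gene; of genes that share a start (25 summits), the first by identifier gave the start clusters. Replicate lists were matched by an overlap of at least 1 bp. Shares have exact 95% binomial intervals, medians order-statistic intervals, both for counting of peaks only. Fisher's exact tests (two-sided, SciPy 1.17.1) were adjusted over 10 by Benjamini-Hochberg, with 0.05 as threshold, and were tested on simulated data; the upper limit for a count of 0 is 3 of the total. The members, tests, gene classes and words were chosen with earlier results of these data known, and class lists were corrected after their matches were seen. Named genes were the nearest genes of the 20 strongest summits, up to 3 per class, the 8 with most bound start clusters, the farthest 5 on each side, the 3 on each side of the 500 bp limit and the weakest 3; sens-2 was added, as were all genes of some classes. Tried as alternatives: the second thresholded list, single-replicate lists, stronger peaks, other windows, starts, summits, cluster gaps and overlap rules.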

Additional observations from a re-analysis of the deposited data

Results flagged for a closer look

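The ranked list across replicates held 21 peaks at one-directional promoters whose score reached the lowest score of the conservative list, 830, and which that list lacks. Their signals ran from 17.2 to 415, with a median of 80.6, and 16 of the 21 lay upstream of the start. The strongest were at larp, an RNA-binding protein gene (signal 415, 349 bp upstream), cbt (189, 391 bp upstream) and CG4297 (160, 229 bp upstream). They were singled out because peaks with a score at or above that lowest score appeared outside the list that the comparisons used.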

How the results depend on the processing

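Of 171 values under 16 alternatives, 144 stayed on the same side of the threshold, within 1.5 times of a count or within the interval of the value reported. The upstream excess over peaks below the threshold ran from 29.0 to 42.6 percentage points and passed in all 12 fits. Differences below are in percentage points, and causes were not tested. By replicate 2's or 1's list alone, the number of summits ran from 530 to 547, the share of genes from 3.65% to 3.79%, the median position from -147 to -104.5 bp, and ribosomal protein genes from 24 to 28. Over the same 2 lists, the share above the median ran from 0.0636 to 11.4 against summits away from promoters and from -11.7 to -4.79 against divergent ones. The share in both lists is here the share of 1 replicate's summits also found in the other replicate's list. Its differences ran from -2.11 to 10.5 against away and from -13.4 (replicate 2's list, past the threshold) to 1.09 against divergent. Those of TATCGATA against divergent ran from -3.02 to -2.17. The other thresholded list gave a median signal of 76.4 and 5.95% of genes. Peaks at or above the median signal gave 431 summits, 3.03% of genes, a median position of -141 bp and a median signal of 124.7, with differences of 3.79 in the share in both lists (away) and -1.70 for TATCGATA (divergent), neither past the threshold. A 250 bp window gave a median position of -79 bp, 42.9% at the first promoter, and differences of 3.12 in the share above the median (away) and -12.2 in the share in both lists (divergent, past the threshold). A 1000 bp window gave -131 bp, 6.21% of genes, 18 ribosomal protein genes and a TATCGATA difference of 0.565 (away, not past the threshold). Starts of every gene type gave -5.95 in the share above the median (divergent). Median signal by replicate and the share above the median among the stronger peaks were not computed, since the scale or the list itself fixes them. No paired analysis was possible because the samples form 1 group.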
